A study of Homo sapiens with 18 samples.

Results

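The mismatch repair genes measured here are *MSH3*, *MSH6*, *MLH3*, *PMS1*, *PMS2* and *EXO1*. They were chosen by name: every spot that measures a transcript and carries 1 of these 6 gene names on the array was taken, which gave 42 of 58717 spots and 15 of 50599 probes, for 6 of 36204 gene names. RNA levels were read on 18 Agilent human arrays with 1 dye. HT29 is a colorectal adenocarcinoma cell line that is sensitive to oxaliplatin (OXA), and HTOXAR3 is a single resistant subline selected from it under rising doses of OXA. Each line was left untreated, treated for 24 h with OXA at its IC50 (10 µM for HT29 and 30 µM for HTOXAR3), or treated for 24 h with the same OXA dose together with 10 µM Curcumin, a plant polyphenol that blocks NF-κB signalling. Each of the 6 groups had 3 arrays, labelled as biological replicates. Cells treated with Curcumin alone were not among these groups, so the effect of Curcumin is seen only on top of OXA.

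Mismatch repair removes base mispairs and small loops left behind by DNA polymerases. MutS dimers find the error (MSH6 gives MutSα its specificity for single mispairs, MSH3 gives MutSβ its specificity for larger loops), MutL dimers are then recruited (PMS2 carries the nicking activity of MutLα, while PMS1 and MLH3 are subunits of MutLβ and MutLγ), and EXO1 digests the strand that holds the error before it is resynthesised. Loss of this pathway gives the microsatellite instability seen in a subset of colorectal tumours, and its proteins bind the adducts of cisplatin better than those of OXA.

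The probes decide which transcript each value stands for, so those behind the results are shown first, in lower case, at their array annotation on GRCh37. The first 5 stand for *MSH3* (chr5:80169024-80169083, plus strand), *MSH6* (chr2:48033919-48033978, plus), *MLH3* (chr14:75485615-75485674, minus), *EXO1* (chr1:242048717-242048776, plus) and *PMS1* (chr2:190670420-190670479, plus). The second *PMS1* probe spans a splice junction between chr2:190732610 and chr2:190738235, so that it measures spliced RNA at another place in the same gene.
MSH3 A_23_P122001: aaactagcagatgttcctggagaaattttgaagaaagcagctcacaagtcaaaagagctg
MSH6 A_23_P102202: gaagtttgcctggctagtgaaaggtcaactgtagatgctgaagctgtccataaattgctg
MLH3 A_33_P3636080: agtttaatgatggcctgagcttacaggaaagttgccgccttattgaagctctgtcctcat
EXO1 A_23_P23303: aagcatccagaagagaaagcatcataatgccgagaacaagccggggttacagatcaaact
PMS1 A_33_P3250463: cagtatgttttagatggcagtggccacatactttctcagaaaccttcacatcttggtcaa
PMS1 A_23_P40059: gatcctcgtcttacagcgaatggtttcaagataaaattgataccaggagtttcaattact
Over ungapped overlaps of at least 30 bases, none of the 9 probes of these 5 genes shared more than 34 of its 60 bases with a probe of any other gene, and none listed a RefSeq transcript of another gene. *MSH3*, *MSH6* and *EXO1* were spotted 10 times on each array, with a median SD between spots of 0.13, 0.23 and 0.14 (log2), and each array's value is the mean of its spots. The other members rest on single spots per probe. The probe standing for each member was well above background on all 18 arrays.

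*PMS2* is different, because the human genome carries many partial copies of it. All 6 of its probes list at least 1 pseudogene transcript in the array annotation (*PMS2P2*, *PMS2P3*, *PMS2P5*, the *PMS2P11* readthrough or *PMS2CL*). The probe that stands for *PMS2* (chr7:6042097-6042156 on GRCh37, minus strand) is shown first. The 2 *PMS2* probes closest to the probe of a copy follow, each paired with it, with capitals at the bases that differ where the pair overlaps.
PMS2 A_21_P0013251: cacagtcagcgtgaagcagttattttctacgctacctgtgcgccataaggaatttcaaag
PMS2 A_24_P374586: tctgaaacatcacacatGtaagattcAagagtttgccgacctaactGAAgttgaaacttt
PMS2P5 A_32_P10272: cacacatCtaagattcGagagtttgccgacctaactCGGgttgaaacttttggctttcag
PMS2 A_24_P195476: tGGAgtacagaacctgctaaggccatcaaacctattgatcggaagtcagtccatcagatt
DTX2P1-UPK3BP1-PMS2P11 A_24_P6911: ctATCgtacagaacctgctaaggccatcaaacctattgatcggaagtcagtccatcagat
The first pair was identical at 45 of 50 overlapping bases and the second at 56 of 59. The other 4 *PMS2* probes, the one standing for the gene among them (23 of 57), shared 22 to 24 bases with the closest probe of a copy. Since each of the 6 lists a transcript of a copy, values under the name *PMS2* may be those of the gene and its copies together, and they are uncertain as a measure of *PMS2* itself.

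The cells carried the epithelial markers of their labels: 8 of 10 colorectal epithelial genes were well above background on all 18 arrays (*CDX2* on 10 and *CDH17* on 5). The level of some differed between the untreated lines: 3 of the 10 were called lower in HTOXAR3 and none higher, *VIL1* (mean 12.06 in HT29 and 10.45 in HTOXAR3), *LGALS4* (14.97 and 12.89) and the dim *CDH17*. Under the combination 3 of the 10 were called higher in each line and 1, *LGALS4*, lower in HTOXAR3. Under OXA alone *VIL1* rose in HT29 by 1.06 (BY adjusted p = 1.16e-06) and none was called in HTOXAR3. When Curcumin was added, none was called in HT29, while *KRT19* and *KRT20* were higher and *LGALS4* lower in HTOXAR3. *VIL1* was called in the OXA interaction, and *VIL1* and *LGALS4* in that of the combination. The part of these markers in the members' values was not tested. None of 5 mesenchymal markers was well above background on every array and 2 were so on none, whereas the leukocyte genes *PTPRC* and *CD14* were detected on all 18 and *CD3E* on 17. Between 52.36% and 63.58% of transcript spots were well above background, the lowest share being that of HTOXAR3 untreated replicate 2. In bulk RNA, fewer cells making a transcript and less of it per cell cannot be told apart. Differences were tested with limma on all genes, and a gene counted as called where the p adjusted after Benjamini-Yekutieli (BY) was below 0.05 and the change exceeded 1.2-fold. The spread was estimated over all 18 arrays; fitted on the arrays of the compared groups alone, 2 of the 15 calls below were kept (*MLH3* under OXA in HT29 and under the combination in HTOXAR3). Levels below are log2 normalised intensities and differences are log2 differences with their SE.

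**Figure D1:**
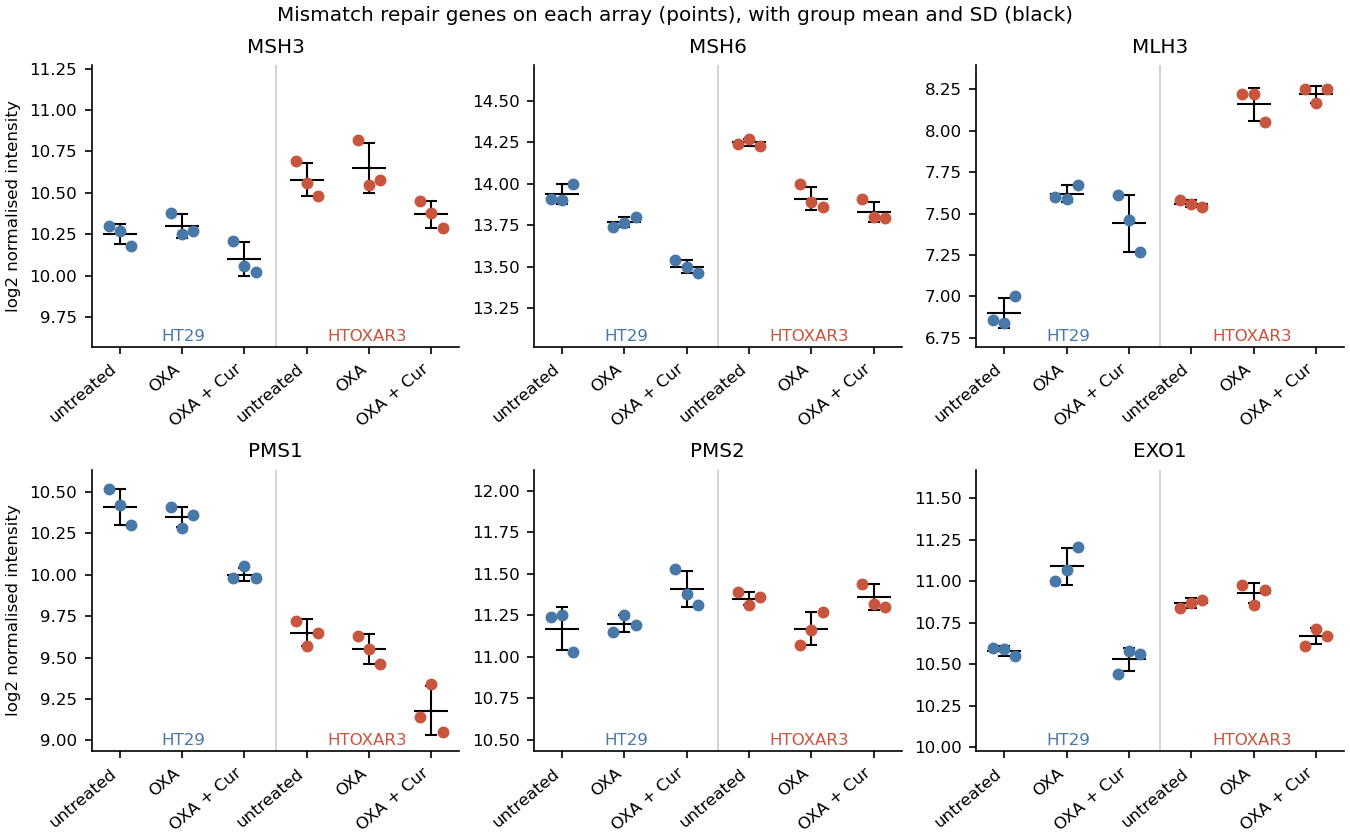
Log2 normalised intensity of each mismatch repair gene on each of the 18 arrays (points, replicates 1 to 3 from left to right), by cell line and treatment, with the group mean and SD in black (n = 3). The height of the axis is the same in all panels, although levels of different probes are not comparable: *MLH3* was above its untreated level on every treated array of each line, *PMS1* was lower on each HTOXAR3 array than on any HT29 array, and *EXO1* was highest in HT29 after OXA.

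The untreated lines were compared to ask how resistant and sensitive cells differ without treatment in this experiment. Of the 6 members, 4 were called, 3 higher and 1 lower in HTOXAR3, where 11.5% of all gene names were called (6.26% higher and 5.28% lower). *PMS1* was 1.70-fold lower in HTOXAR3, *MLH3* was 1.58-fold higher, and *MSH6* and *EXO1* were 1.24-fold and 1.22-fold higher.

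For *PMS1*, the 3 untreated HT29 arrays read 10.52, 10.42 and 10.30 and the 3 untreated HTOXAR3 arrays 9.72, 9.57 and 9.65. The groups did not overlap, and the difference was -0.77 (SE 0.08, BY adjusted p = 9.4e-05). The junction probe of *PMS1* read 10.29, 10.34 and 10.30 in HT29 against 9.46, 9.49 and 9.46 in HTOXAR3, and its difference was -0.84 (SE 0.07, BY adjusted p = 1.15e-05 in a fit over all probes). Both detected places of the transcript were thus lower in the resistant line. The remaining *PMS1* probe was above background on none of the 18 arrays and gives no level.

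*MLH3* moved the other way, from 6.86, 6.84 and 7.0 in HT29 to 7.58, 7.56 and 7.54 in HTOXAR3. All 3 HTOXAR3 arrays lay above all HT29 arrays, and the difference was 0.66 (SE 0.08, BY adjusted p = 3.68e-04). *MSH6* read 13.91, 13.90 and 14.00 in HT29 and 14.24, 14.27 and 14.23 in HTOXAR3, a difference of 0.31 (SE 0.06, BY adjusted p = 0.0107) between groups that did not overlap. *EXO1* read 10.60, 10.59 and 10.55 against 10.84, 10.87 and 10.89, again without overlap, a difference of 0.29 (SE 0.06) whose BY adjusted p of 0.0467 lay just inside the threshold.

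*MSH3* was higher on every HTOXAR3 array (10.69, 10.56 and 10.48) than on any HT29 array (10.30, 10.27 and 10.18), but its difference of 0.33 (95% confidence interval 0.14 to 0.51) was not called (BY adjusted p = 0.15), although it was with the slide as a block (0.34, BY adjusted p = 0.0465). *PMS2* differed by 0.18 (95% confidence interval 0.01 to 0.35) and was not called. The calls of *PMS1* and *MLH3* held without any single array, although *PMS1* was not called with the mean of all its probes, the undetected one included (-0.53, BY adjusted p = 0.191), whereas *MSH6* was lost without HT29 untreated replicate 1 or 2 or HTOXAR3 untreated replicate 1 or 2 (BY adjusted p up to 0.0696), and *EXO1* was lost without any 1 of the 6 arrays (BY adjusted p 0.12 to 0.216) and with the slide as a block (0.28, BY adjusted p = 0.117). The number of members called fell from 4 to 2 without each of the 4 arrays that *MSH6* depended on, and leaving out HTOXAR3 untreated replicate 2, the array with the lowest detection, gave -0.73 for *PMS1* and 0.66 for *MLH3*.

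OXA alone was compared with no treatment in each line. *MLH3* rose in both lines, 1.65-fold in HT29 and 1.52-fold in HTOXAR3. *EXO1* was called in HT29 only and *MSH6* in HTOXAR3 only, and neither line difference passed its own test, which is given further on. In HT29, 2 of the 6 members were called, both higher (15.9% of all gene names were called, 8.33% higher). In HTOXAR3 2 were called, 1 higher and 1 lower (10.2% of all gene names, 5.31% higher and 4.94% lower).

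After OXA, *MLH3* read 7.60, 7.59 and 7.67 in HT29 and 8.22, 8.22 and 8.05 in HTOXAR3. Every treated array was above every untreated array of its line, with differences of 0.72 (SE 0.08, BY adjusted p = 1.19e-04) and 0.60 (SE 0.08, BY adjusted p = 1.16e-03). *MLH3* in OXA-treated HT29 (mean 7.62) thus came to lie close to its untreated level in HTOXAR3 (mean 7.56). The gap of 0.06 is smaller than the SE of 0.08 of the differences above, and this pair of groups was not tested.

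*EXO1* read 11.0, 11.07 and 11.21 in HT29 after OXA, its highest level in any group and above all untreated HT29 arrays, a rise of 0.51 (SE 0.06, BY adjusted p = 2.88e-04). In HTOXAR3 it read 10.98, 10.86 and 10.95, overlapping the untreated arrays, with a difference of 0.06 (95% confidence interval -0.08 to 0.20). *MSH6* fell in HTOXAR3 to 14.00, 13.89 and 13.86, below every untreated array, by 0.33 on the log2 scale (SE 0.06, BY adjusted p = 7.39e-03). In HT29 it read 13.74, 13.76 and 13.80, also below every untreated array, but the difference of -0.17 (95% confidence interval -0.29 to -0.05) was not called (BY adjusted p = 0.432). *MSH3*, *PMS1* and *PMS2* were called in neither line, their differences running from -0.19 to 0.07. Leaving out any single array ended none of these 4 calls, the highest BY adjusted p being 0.049 for *MSH6*.

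OXA plus Curcumin was compared with no treatment. The same 3 members were called in both lines: *MLH3* was higher, and *MSH6* and *PMS1* were lower (3 of 6 in each line). Of all gene names, 18.6% were called in HT29 (9.56% higher and 9.02% lower) and 17.5% in HTOXAR3 (8.82% and 8.64%). The 2 comparisons share no arrays with each other, but each shares the untreated arrays of its line with the OXA comparison.

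*MLH3* read 7.61, 7.46 and 7.27 in HT29 and 8.25, 8.17 and 8.25 in HTOXAR3 under the combination, above every untreated array, with differences of 0.54 (SE 0.08, BY adjusted p = 1.35e-03) and 0.66 (SE 0.08, BY adjusted p = 2.28e-04). The *MLH3* difference in HT29 was uneven between slides, at 0.69 within slide 2 and 0.26 within slide 3. *MSH6* read 13.54, 13.50 and 13.46 in HT29, a fall of 0.44 on the log2 scale (SE 0.06, BY adjusted p = 3.36e-04), and 13.91, 13.80 and 13.79 in HTOXAR3, a difference of -0.41 (SE 0.06, BY adjusted p = 5.93e-04). Treated and untreated arrays did not overlap for *MSH6* in either line.

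*PMS1* read 9.98, 10.05 and 9.98 in HT29 and 9.14, 9.34 and 9.05 in HTOXAR3, in each line below every untreated array. The differences were -0.41 (SE 0.08, BY adjusted p = 0.0148) and -0.47 (SE 0.08, BY adjusted p = 5.26e-03), and the junction probe was called in both lines as well, at -0.46 and -0.58. In HT29, the call of *PMS1* was lost without untreated replicate 1 or 2 or without combination replicate 1 or 3 (BY adjusted p up to 0.0963) and with the slide as a block (-0.38, BY adjusted p = 0.053). In HTOXAR3 it held without any single array. *EXO1* was back near its untreated level in HT29, at 10.44, 10.58 and 10.56 (difference -0.05, 95% confidence interval -0.19 to 0.08), and read 10.61, 10.71 and 10.67 in HTOXAR3, where the difference of -0.20 was not called. *MSH3* and *PMS2* were not called.

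**Figure D2:**
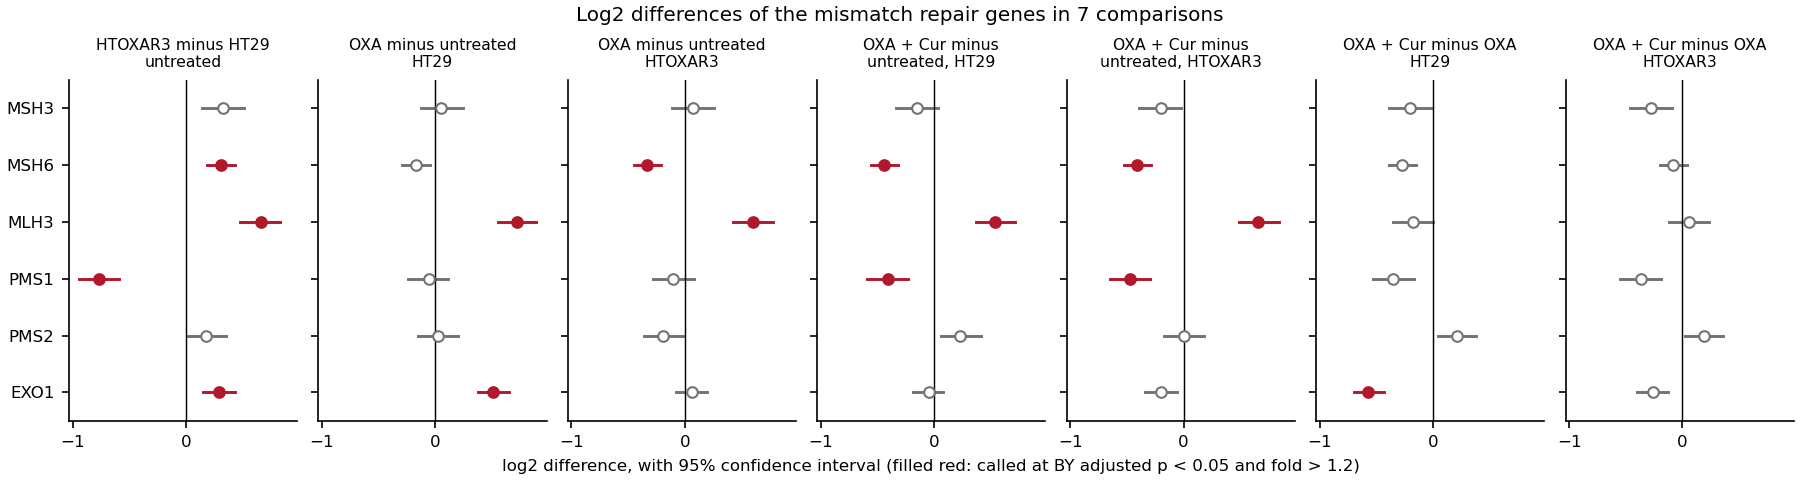
Log2 difference (points) and 95% confidence interval (lines) of each mismatch repair gene in the 7 comparisons of 2 groups, each panel with the same axis. Filled red points are called (BY adjusted p below 0.05, change over 1.2-fold): *MLH3* is called higher in 5 of the 7, *PMS1* lower in 3, and *MSH3* and *PMS2* in none.

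The combination was also compared with OXA alone, to ask what adding Curcumin changed. In HT29 *EXO1* fell from its OXA level by 0.57 on the log2 scale, 1.48-fold (SE 0.06, BY adjusted p = 5.18e-04), and the 3 arrays of each group did not overlap. It was the single member called, where 5.53% of all gene names were (2.39% lower). In HTOXAR3 none of the 6 was called by limma (8.83% of all gene names). The 4 differences farthest from 0 were those of *PMS1* (-0.37, SE 0.08, BY adjusted p = 0.0605), *MSH3* (-0.28, SE 0.09, BY adjusted p = 0.46), *EXO1* (-0.26, SE 0.06, BY adjusted p = 0.108) and *PMS2* (0.19, SE 0.08). With Benjamini-Hochberg in place of BY adjustment *PMS1*, *EXO1* and *MSH3* passed in HTOXAR3, and *MSH6*, *EXO1* and *PMS1* passed in HT29; *EXO1* in HTOXAR3 and *MSH6* in HT29 lay at the 1.2-fold limit.

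*PMS1* differed by much the same amount in HT29 (-0.35, SE 0.08, BY adjusted p = 0.126), and its junction probe was called in both lines (-0.45 and -0.48, BY adjusted p = 0.00981 and 0.00385). Within each line, no *PMS1* array of the combination reached the lowest array under OXA alone. *MSH6* differed by -0.27 in HT29 (SE 0.06, BY adjusted p = 0.0628) and by -0.08 in HTOXAR3 (95% confidence interval -0.20 to 0.04). *MLH3* was not called in either line (-0.18 and 0.06). *PMS2* stood higher with Curcumin by 0.21 and 0.19 in the HT29 and HTOXAR3 lines, not called in either.

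Whether the lines responded differently was tested through interactions, which also compare different OXA doses and share arrays with the comparisons above. None of the 6 members was called in any of the 3 interactions, where 1.01% (OXA), 0.856% (combination) and 0.135% (adding Curcumin) of all gene names were. The nearest was *EXO1*, whose OXA response was lower in HTOXAR3 than in HT29 by 0.45 on the log2 scale (difference -0.45, 95% confidence interval -0.65 to -0.26, BY adjusted p = 0.141). For adding Curcumin the interaction was 0.30 for *EXO1* (95% confidence interval 0.11 to 0.50) and 0.19 for *MSH6* (0.01 to 0.36). The *EXO1* interaction for OXA was -0.36 within slide 2 and -0.65 within slide 3. It was called with Benjamini-Hochberg adjustment (adjusted p = 0.0128), with a normexp offset of 50 (BY adjusted p = 0.0318) and with dim gene names left out (BY adjusted p = 0.033). For *MSH6* the OXA response differed by -0.16 between the lines (95% confidence interval -0.33 to 0.01). The intervals of the members other than *EXO1* for the OXA response ran, at their widest, from -0.45 for *PMS2* to 0.28 for *MSH3*.

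Ordered by level, the members gave different patterns over the 6 groups. *PMS1* separated first by line: the 3 HT29 groups were the highest and the 3 HTOXAR3 groups the lowest, with the combination at the bottom of each, and only untreated and OXA arrays overlapped within a line. *MLH3* went from untreated HT29 (mean 6.90) through HT29 with the combination, untreated HTOXAR3 and HT29 with OXA to the 2 treated HTOXAR3 groups (means 8.16 and 8.22), which overlapped each other. *MSH6* was highest in untreated HTOXAR3 (14.25) and lowest in HT29 with the combination (13.50), and the 4 groups between them ran from 13.77 to 13.94, each overlapping the next. *PMS2* stayed between 11.17 and 11.41. Across the 18 arrays, Pearson's r was -0.81 between *MLH3* and *PMS1* and 0.71 between *MSH3* and *MSH6*, as a description over arrays that share lines and treatments.

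The genes whose pattern over the 18 arrays was most like each member were sought among 13967 gene names well above background on every array. For *EXO1* these were *KAT2A*, *DTL* and *SUV39H2* (r = 0.945, 0.935 and 0.923), for *PMS1* *FABP6*, *SLC43A1* and *DENND6A* (0.987, 0.981 and 0.978), and for *MLH3* *MYBL1*, *SF3A3* and *PNMA1* (0.977, 0.976 and 0.975). For *MSH6* they were *PUS1*, *NFYB* and *MRPS26* (0.966, 0.963 and 0.961), and for *MSH3* *STX2*, *PHF6* and *TCEAL2* (0.953, 0.951 and 0.948). For *PMS2* they were *RSRP1*, *GOLGA2P6* and *OSBPL7* (0.874, 0.835 and 0.819). High values were common for some members: 1% of the genes searched exceeded 0.934 for *PMS1*, 0.929 for *MLH3*, 0.901 for *MSH6*, 0.857 for *MSH3*, 0.779 for *EXO1* and 0.632 for *PMS2*, so r is not comparable between members.

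**Figure D3:**
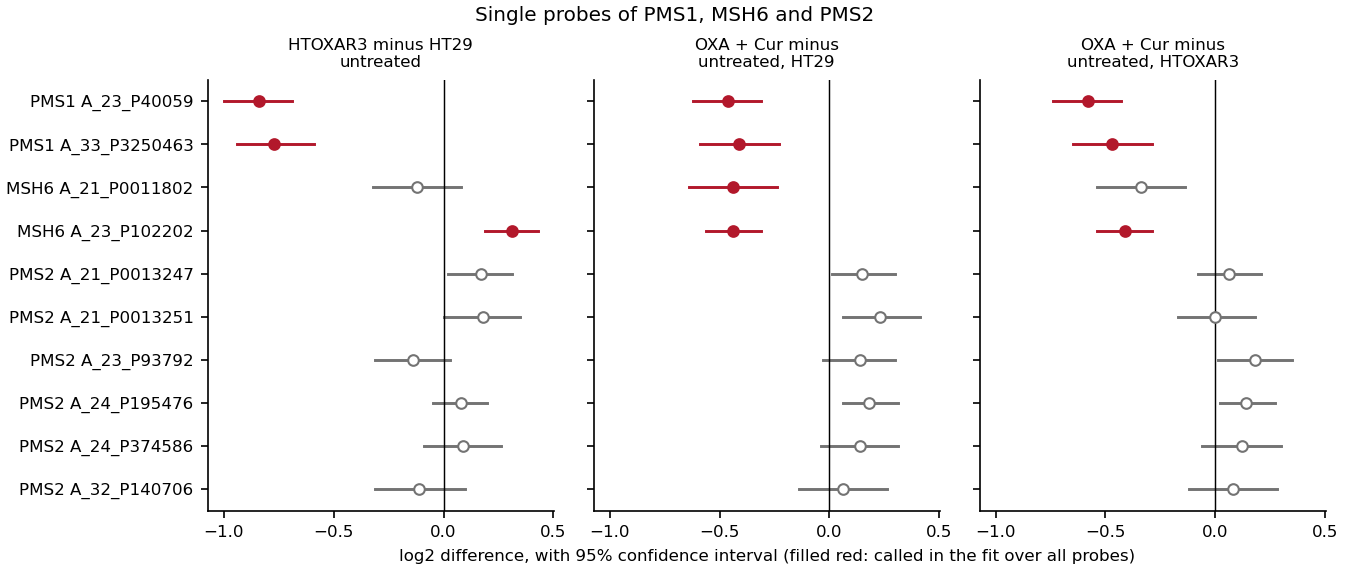
Log2 difference (points) with 95% confidence interval (lines) for single probes of *PMS1*, *MSH6* and *PMS2*, in the untreated lines and under OXA plus Curcumin. Filled red points are called in the fit over all probes: both *PMS1* probes lie on the same side in all 3 panels, and no *PMS2* probe is called. The *PMS1* probe never above background and the *MSH6* probe above it on 3 arrays are left out.

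Single probes of *PMS2* and *MSH6* were then compared. Over the 7 comparisons, the 6 *PMS2* probes differed by -0.19 to 0.23 and none was called. Of all 50599 probes, 14.4% were called under OXA in HT29, and 17.3% and 16.3% under the combination in HT29 and HTOXAR3. The 9 probes named for its pseudogene copies differed by -0.13 to 0.45, and 2 were called: *PMS2P1* rose by 0.32 in HT29 under OXA (BY adjusted p = 0.0065) and by 0.39 and 0.34 under the combination in HT29 and HTOXAR3, and 1 of 2 probes of *PMS2P9* rose in HT29 by 0.44 and 0.45 under OXA and the combination (BY adjusted p = 0.048 and 0.04). *MSH6* has a pair of further probes, at chr2:47935383-47935442 and chr2:47984873-47984932 on GRCh37, upstream of the gene and annotated to an Ensembl transcript alone. The first was detected on all 18 arrays. It differed by -0.12 between the untreated lines (not called), where the main probe was 0.31 higher in HTOXAR3, and fell by 0.67 on the log2 scale under OXA in HT29 (BY adjusted p = 9.7e-04; main probe -0.17). When Curcumin was added in HT29 the probes lay on opposite sides, at 0.23 and -0.27, neither called. They lay closer at -0.33 under OXA in HTOXAR3 (main probe -0.33) and at -0.44 and -0.34 under the combination in HT29 and HTOXAR3 (main probe -0.44 and -0.41), called in HT29 alone of these 3. The second was above background on 3 of 18 arrays.

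The partners of mismatch repair were described as a list of 16 genes of the sliding clamp, its loader, single-strand binding, resynthesis, ligation and recruitment. Under OXA alone, 5 of the 16 rose in HT29 and 6 in HTOXAR3, and none fell, where 8.33% and 5.31% of all gene names were called higher. The leading ones were *POLD1* and *POLD4*, subunits of DNA polymerase delta, which rose by 0.75 and 0.74 in HT29 and 0.68 and 0.65 in HTOXAR3, and *RFC4*, a subunit of the clamp loader, which rose by 0.48 and 0.43. The list's median was 0.19 in HT29 (all gene names: -0.01) and 0.20 in HTOXAR3 (all: 0.01). Between the untreated lines 2 of the 16 were higher in HTOXAR3 (*RFC3*, 0.46, and *RFC5*, 0.34) and *POLD4* was lower (-0.42), with a median of 0.07 (all: -0.03; 6.26% of all gene names called higher and 5.28% lower).

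Under the combination, 3 partners rose and 5 fell in HT29 (median -0.12, all: -0.03), and 1 rose and 6 fell in HTOXAR3 (median -0.20, all: -0.01). Of all gene names, 9.56% were called higher and 9.02% lower in HT29, and 8.82% and 8.64% in HTOXAR3. The sliding clamp *PCNA* was lower, with log2 differences of -0.48 in HT29 and -0.46 in HTOXAR3, while *POLD4* rose by 1.23 and 0.97. Against OXA alone, 8 of the 16 were lower and 1 higher with Curcumin in HT29 (median -0.37, all: -0.02; 2.39% of all gene names lower and 5.53% called), and 6 were lower and 1 higher in HTOXAR3 (median -0.29, all: -0.02; 8.83% called). *POLD3* fell by 0.41 and 0.59 on the log2 scale and *RFC4* by 0.43 and 0.50, in HT29 and HTOXAR3, and the gene that rose in both lines was *POLD4* (0.49 and 0.33), named for HTOXAR3 after its values were seen. No partner was called in an interaction.

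A second list held 30 genes of S phase and proliferation, all well above background on the 18 arrays. In HT29, 5 rose and 3 fell under OXA (median 0.09, all: -0.01), where 15.9% of all gene names were called and 8.33% called higher. There 15 fell under the combination (median -0.36, all: -0.03), where 9.02% of all gene names were called lower, and 17 fell when Curcumin was added to OXA (median -0.40, all: -0.02), where 2.39% were, with none rising in the last 2. In HTOXAR3 2 fell under OXA (median 0.03, all: 0.01; 4.94% of all gene names lower), and 12 fell and 1 rose under the combination (median -0.19, all: -0.01; 8.64% lower; the riser, *CCNE1* at 0.38, was picked out after its values were seen), and 13 fell when Curcumin was added (median -0.30, all: -0.02; 8.83% called in either direction). *MCM6*, a subunit of the replicative helicase, was lower under OXA in both lines (-0.79 and -0.86). *MCM7*, another subunit, fell by 0.59 and 0.65 on the log2 scale when Curcumin was added, and *POLA1*, the catalytic subunit of primase-polymerase alpha, by 0.61 and 0.62. Between the untreated lines 4 were higher in HTOXAR3, among them *GINS2* (0.37) and *POLE2* (0.48), with a median of 0.08 (6.26% of all gene names called higher). Among the members, *MSH6* stood at -0.44 under the combination in HT29 and *PMS1* at -0.35 (not called) when Curcumin was added there. *MLH3* was higher by 0.72 and 0.60 under OXA and by 0.54 and 0.66 under the combination in HT29 and HTOXAR3. *PMS1* differed by -0.77 between the untreated lines, and *EXO1* stood at -0.05 under the combination in HT29. When Curcumin was added in HT29, *EXO1* fell by 0.57 on the log2 scale (95% confidence interval -0.70 to -0.43). Of the list, *MCM7* and *POLA1* fell there by 0.59 and 0.61. *MSH6* fell by 0.33 on the log2 scale under OXA in HTOXAR3, where *MCM6* of the list stood at -0.86. Since single genes of the list spread widely around its median, a member's distance from that median places it neither with the list nor apart from it. Whether the list has a part in the members' values was not tested.

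**Figure D4:**
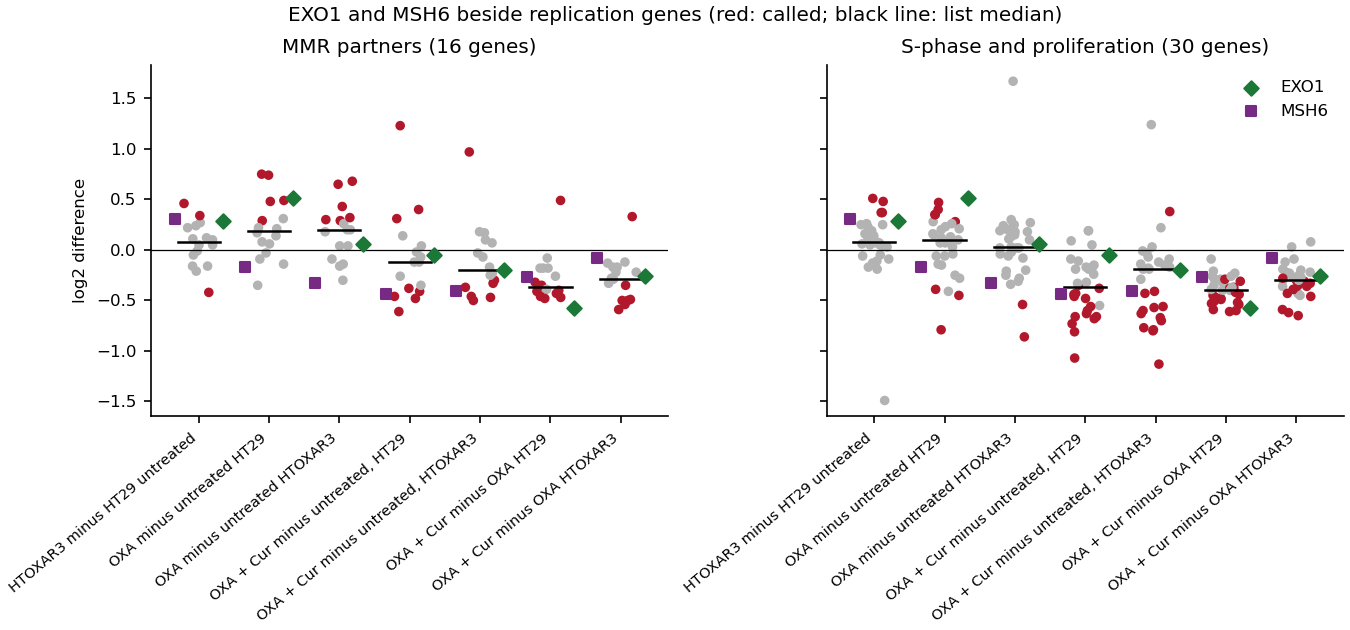
Log2 differences of the 16 mismatch repair partners (left) and 30 S-phase and proliferation genes (right) in the 7 comparisons of 2 groups, 1 point per gene, red where called, with the list's median as a black line. *EXO1* (green diamonds) and *MSH6* (purple squares) are drawn beside them in both panels, and *EXO1* lies at 0.51 after OXA in HT29 and at -0.57 when Curcumin was added. The grey points farthest from 0 on the right are *GINS1* (-1.49 between the untreated lines and 1.67 under OXA in HTOXAR3, both with SE 0.94).

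Promoter windows from 250 bases before to 50 after the start were available for all 6 members in RefSeq (GRCh38.p14). They were searched on both strands for 4 forms of the E2F motif, TTTCCCGC, TTTCGCGC, TTTGCCGC and TTTGGCGC, which 3.99% of 27305 gene symbols hold in at least 1 window. Of the 6 members, 4 held a match: *EXO1*, *MSH3*, *MSH6* and *PMS2*. Every motif holds a CG, and the windows with a match held 24 to 39 CG dinucleotides, against a median of 14 over all promoter windows, so the shares are not set against windows of like composition. *PMS1* and *MLH3*, with no match, held 40 and 22. The stretches around the matches in *EXO1* (window chr1:241847954-241848253), *MSH6* (chr2:47782895-47783194) and *MSH3* (chr5:80654402-80654701), all on the plus strand, are shown with the motif in capitals. The *MSH3* match overlaps another on the opposite strand.
EXO1: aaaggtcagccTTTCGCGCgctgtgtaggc
MSH6: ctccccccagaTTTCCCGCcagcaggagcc
MSH3: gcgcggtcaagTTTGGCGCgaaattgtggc
A match describes these letters and shows no binding. *EXO1* and *MSH6*, which both hold one, differed in direction under OXA in HT29 (0.51 called and -0.17 not called). Between the untreated lines they went the same way (0.29 and 0.31, both called). Whether a match has a part in the members' values was not tested.

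The meiotic MutS homologues were measured as well. *MSH5* rose under OXA by 0.61 in HT29 (SE 0.10, BY adjusted p = 2.75e-03) and 0.46 in HTOXAR3 (SE 0.10, BY adjusted p = 0.0408), from 9.14, 9.18 and 9.19 to 9.62, 9.89 and 9.83 in HT29 and from 9.40, 9.27 and 9.30 to 9.59, 9.85 and 9.90 in HTOXAR3. The second *MSH5* probe was called in HT29 (0.58) and not in HTOXAR3 (0.33, BY adjusted p = 0.45). *MSH4* was not well above background on any array.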

How the data were processed

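Total RNA of 18 cultures was labelled with Cy3, hybridised to Agilent human v2 arrays and scanned. What the authors deposited is the Feature Extraction output per array, with linear intensity readings of every spot and its local background and no normalisation between arrays. A table of processed values, whose lines carry no probe name, was not used here. Mean intensities were background corrected with normexp and quantile normalised, following the study's methods, which give no offset; an offset of 0 was chosen here. Control spots and outlier-flagged spots were left out, replicate spots were averaged, and of several probes of a gene the one with the highest mean was used. lmFit and eBayes of limma 3.58.1 (R 4.3.3) were fitted to all 36204 gene names with 6 group terms. Calls needed an adjusted p (BY) under 0.05 with a change of more than 1.2-fold. Matches and figures were made in Python 3.11.15 (pandas 2.3.3, numpy 2.4.6, matplotlib 3.10.9). Precision is limited by having 3 arrays in a group.

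The members and gene lists were chosen with earlier results of these data known. Named were all members and their probes, and of each list at most 4 called genes per comparison, by lowest p. A further gene named by that rule and a marker gene are not reported here. The model was tested on simulated arrays. Arrays lay on 3 slides, each scanned at 1 time. Slide 1 held only replicate 1 of untreated HT29 and of HT29 with OXA, so lines and Curcumin were not balanced over the slides. The highest correlation of any pair of arrays was 0.994. Same-numbered arrays deviated together (every pair over 0.1) for OXA against untreated in HT29 (0.324 to 0.413) and for adding Curcumin in HT29 (0.126 to 0.264), and not in the other comparisons of 2 groups.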

Additional observations from a re-analysis of the deposited data

How the results depend on the processing

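Across the 10 comparisons, no called difference of a member changed sign under another normexp offset, the processed intensity, the mean of all probes, a filter on dim gene names, Benjamini-Hochberg adjustment, a fit on the compared groups alone, a slide block, a replicate block or leaving out any array. Counts of members called that moved by over 1.5 times were these. With the mean of all probes, the counts were 2 for the untreated lines (4 in the model used here), 1 for OXA in HTOXAR3 (2) and 1 for the combination in each line (3 each), since this mean takes in the dim and upstream probes. *PMS1* then stood at -0.53 in the untreated lines (-0.77 with its main probe), *MSH6* at -0.04 (-0.44 with its main probe) and *PMS1* at -0.20 (-0.41) under the combination in HT29, *MSH6* at -0.13 (-0.33) under OXA in HTOXAR3, and *PMS1* at -0.26 (-0.47) under the combination in HTOXAR3. Fitted on the compared groups alone, which leaves fewer arrays to estimate the spread, they were 0 for the untreated lines, 1 and 0 for OXA in HT29 and HTOXAR3, 0 and 1 for the combination, and 0 for adding Curcumin in HT29. For adding Curcumin in HT29, where 1 member was called, the count was 3 at an offset of 50, 2 with the processed intensity, 3 with dim names left out and 3 with Benjamini-Hochberg adjustment. For adding Curcumin in HTOXAR3, where none was called, these settings gave 1 (offset of 50), 2 (dim names left out) and 3 (Benjamini-Hochberg adjustment). For the OXA interaction, *EXO1* gave a count of 1 at an offset of 50, with dim names left out and with Benjamini-Hochberg adjustment, and 0 otherwise. The cause was not tested.

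Leaving out 1 array, without renormalising the rest, gave 2 to 3 members for the untreated lines and 0 to 1 for adding Curcumin in HTOXAR3 (*PMS1*, without combination replicate 2). With a replicate block, whose numbers paired the arrays in 2 comparisons, no call changed in those 2. Elsewhere the block called *MSH3* in the untreated lines (0.33, BY adjusted p = 0.00881) and for adding Curcumin in HTOXAR3 (-0.28, BY adjusted p = 0.0389, count 1), and *EXO1* lost its call in the untreated lines (0.29, BY adjusted p = 0.0554). In the untreated lines *EXO1* was called under 4 of 8 settings, being lost also with the processed intensity (BY adjusted p = 0.0509), the slide block (0.117) and the compared groups alone (0.388). *MSH3* was gained there with the slide block (0.34, BY adjusted p = 0.0465) and with Benjamini-Hochberg adjustment (0.33, adjusted p = 0.0135), which gave 5 members.

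Taken on their own, a choice made after seeing the data, the detected upstream *MSH6* probe lay on the opposite side of a called value in the untreated lines, at -0.12. Values of opposite sign from which no direction can be read, since their signal was at background on most or all arrays, were 0.27 and 0.76 for the dim one under OXA in HTOXAR3 and the combination in HT29, and 0.02, 0.26 and 0.27 for the undetected *PMS1* probe in the untreated lines and under the combination in HT29 and HTOXAR3. None of these 6 was called. Signal over background limits these dim probes, whereas each member's main probe was well above background on every array. The size of the *MLH3* differences, read from 1 probe at a low level, still moved with the processing. Over 8 settings it ran from 0.49 to 0.74 in the untreated lines. In HT29 it ran from 0.54 to 0.81 under OXA and from 0.4 to 0.63 under the combination. In HTOXAR3 these ranges were 0.5 to 0.65 and 0.55 to 0.72. The part of background in this was not tested.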
